A study of Homo sapiens with 8 samples.

Results

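Transcripts of 29 listed genes of cholesterol synthesis, uptake and SREBP2 control were followed in HCT116, an established cell line from a human colorectal carcinoma. The genes were found by name in a table of 58735 genes, and 28 of the 29 reached 1 FPKM or more in 2 or more libraries, as did 16239 genes in all. FPKM is the number of fragments of a gene scaled for the length of its exons and for the size of the library, a measure of mRNA level that can be compared between genes. The 28 genes that reached this level were tested. The gene just inside the limit, CYP51A1, had 0.912 to 3.33 FPKM over the libraries, and the gene outside it, ABCA1, had 0.0109 to 0.655 FPKM.

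RNA was sequenced from 8 libraries in 4 groups of 2. Cells of the first 2 groups carried MAPKAPK2 shRNA 1 or MAPKAPK2 shRNA 2 and grew at 20 mM glucose; how long is not stated in the labels. Cells of the other 2 groups carried a control shRNA and were kept for 24 h at 0 mM glucose or at 20 mM glucose. An shRNA is a short hairpin RNA that lowers the mRNA it matches, and every group carried one. MAPKAPK2 encodes MK2, a kinase downstream of p38 MAP kinases in stress signalling. Nothing in the labels says whether the 2 libraries of a group came from separate cultures or whether a hairpin line was grown from 1 clone, so each p-value reflects only how far these libraries spread, which may be technical. The same 2 control libraries at 20 mM glucose entered the comparisons of shRNA 1, of shRNA 2 and of glucose withdrawal.

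Libraries held 14252316 to 19975449 reads in genes. The library size implied by the FPKM was 18939578 and 16098105 with shRNA 2. That is below its reads in genes, 19794574 and 16948589, while in every other library the implied size was above them. Deposited FPKM with shRNA 2 are thus higher, relative to the other groups, than scaling by reads in genes would give. Colon epithelial markers summed to 1218.55 to 1776.53 FPKM, most of it from the keratin genes KRT8, KRT18 and KRT19. Of the 8 markers 6 reached 1 FPKM, while VIL1 stayed at or near 0 and LGALS4 had 0.020 to 0.256 FPKM. None of 4 endothelial and none of 5 leukocyte markers reached 1 FPKM in any library. Of 6 fibroblast markers only COL1A1 reached it, and their sum was 4.02 to 4.22 FPKM with shRNA 1, 4.24 to 4.74 with shRNA 2, 6.25 to 6.92 at 0 mM glucose and 6.73 to 7.30 in the 20 mM controls. Its part in the results was not tested. Mitochondrially encoded genes took 11.1% and 9.62% of reads with shRNA 1, 7.06% and 9.10% with shRNA 2, 7.28% and 8.72% at 0 mM glucose and 6.83% and 7.82% in the 20 mM controls. The second 0 mM library and the second shRNA 2 library stood apart on the third principal component, at 32.45 and 18.44, from the other 6, at -16.71 to 0.96. MAPKAPK2 itself stood at 2.77 and 2.54 FPKM with shRNA 1 and at 0.982 and 0.800 FPKM with shRNA 2, against 16.4 and 16.2 FPKM in the 20 mM controls, and at 17.9 and 18.9 FPKM at 0 mM glucose.

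Cells make cholesterol from acetyl-CoA through mevalonate, farnesyl diphosphate and squalene, and they also take it up from lipoproteins. SREBP2, the product of SREBF2, is a membrane-bound transcription factor that its escort SCAP carries from the endoplasmic reticulum to the Golgi for cleavage when membrane sterol is low; INSIG1 and INSIG2 hold the complex back when sterol is high. The released factor activates genes of synthesis and uptake, including SREBF2 and INSIG1 themselves, through sterol regulatory elements that often lie near sites of the factor NF-Y.

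The start regions of 5 genes on which the results turn are shown here. SREBF2 and HMGCS1 differed from the control with both hairpins, INSIG1 and STARD4 differed between the hairpins, and INSIG2 was the member that stood higher with both. Each line gives 250 bases before the RefSeq start on GRCh38.p14, 5' to 3' on the gene's own strand, for SREBF2 (chr22:41832855-41833104, plus strand), HMGCS1 (chr5:43313413-43313662, minus strand), INSIG1 (chr7:155297628-155297877, plus strand), STARD4 (chr5:111512536-111512785, minus strand) and INSIG2 (chr2:118088221-118088470, plus strand). Capitals mark the sterol element core CACNCCAC and the NF-Y box CCAAT on either strand.
SREBF2: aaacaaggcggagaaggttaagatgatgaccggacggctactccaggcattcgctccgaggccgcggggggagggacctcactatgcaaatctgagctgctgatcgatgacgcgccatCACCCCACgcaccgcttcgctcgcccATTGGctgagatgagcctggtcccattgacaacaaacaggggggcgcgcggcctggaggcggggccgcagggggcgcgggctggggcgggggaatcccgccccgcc
HMGCS1: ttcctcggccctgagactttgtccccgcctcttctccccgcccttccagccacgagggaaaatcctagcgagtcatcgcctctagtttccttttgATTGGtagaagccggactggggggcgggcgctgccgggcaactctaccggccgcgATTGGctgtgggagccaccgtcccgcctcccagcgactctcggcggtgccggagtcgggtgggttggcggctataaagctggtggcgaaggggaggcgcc
INSIG1: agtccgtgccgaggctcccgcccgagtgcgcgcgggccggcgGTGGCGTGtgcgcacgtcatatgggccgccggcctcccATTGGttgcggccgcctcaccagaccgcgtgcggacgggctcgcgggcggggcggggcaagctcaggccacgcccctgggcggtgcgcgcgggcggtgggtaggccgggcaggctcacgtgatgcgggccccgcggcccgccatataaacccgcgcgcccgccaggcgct
STARD4: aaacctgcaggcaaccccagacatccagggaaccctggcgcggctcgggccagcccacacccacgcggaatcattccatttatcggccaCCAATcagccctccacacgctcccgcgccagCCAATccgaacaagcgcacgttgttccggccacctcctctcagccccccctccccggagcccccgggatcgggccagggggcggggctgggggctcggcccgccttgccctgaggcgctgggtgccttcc
INSIG2: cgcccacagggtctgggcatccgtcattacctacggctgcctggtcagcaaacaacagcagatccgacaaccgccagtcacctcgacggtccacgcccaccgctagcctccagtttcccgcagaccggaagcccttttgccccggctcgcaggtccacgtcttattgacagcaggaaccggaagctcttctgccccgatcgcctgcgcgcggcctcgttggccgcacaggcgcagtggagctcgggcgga
HMGCS1 and INSIG2 have 2 annotated starts each, and the upstream one is shown. SREBF2 carries a core on the plus strand and an NF-Y box, HMGCS1 carries 2 NF-Y boxes and no core, INSIG1 carries a core on the reverse strand and an NF-Y box, STARD4 carries 2 NF-Y boxes and no core, and INSIG2 carries neither motif. In GENCODE 29 on GRCh38, HMGCS1 (ENSG00000112972) spans bases 43289395 to 43313512 of chromosome 5, INSIG1 (ENSG00000186480) 155297776 to 155310235 of chromosome 7, STARD4 (ENSG00000164211) 111496033 to 111512590 of chromosome 5 and INSIG2 (ENSG00000125629) 118088452 to 118110997 of chromosome 2, so some annotated starts lie within the windows shown.

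RefSeq windows of 250 bases before to 50 bases after a start were found for 26 of the 29 genes, 33 windows in all. The full element TCACNCCAC, which contains the core, was in 1 member window, that of SREBF2, where it begins 133 bases before the start; it was in 1.13% of all 35116 windows in the table. The core was in 6 of 33 member windows (18.2%), against 5.87% of all windows, and these belong to SREBF2, INSIG1, IDI1, SC5D and ABCA1. The NF-Y box was in 21 of 33 (63.6%), against 34.6%, and the GC box GGGCGG of factors such as Sp1 was in 30 of 33 (90.9%), against 45.0%. Both strands were searched. These are letter matches, given as a description, and windows of 1 gene overlap.

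Expression was tested with limma on log2(FPKM + 1) over all 16239 genes, and a gene passed when its p, adjusted by the Benjamini-Hochberg method, was under 0.05. On this scale the change of a gene at low FPKM is understated. In the 20 mM controls the mean level of the 28 genes ranged between 2.54 FPKM for CYP51A1 and 35.5 FPKM for SREBF2, with a median of 13.6 FPKM. As a share of this control level, the median over the 28 genes was 62.1% with shRNA 1, 96.9% with shRNA 2 and 106% at 0 mM glucose. These are averages over many cells, so fewer cells of a type and less RNA per cell cannot be told apart.

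The comparison of shRNA 1 with the control asked how sterol genes stand after MK2 knockdown. With shRNA 1, 17 of 28 genes fell and 1, INSIG2, rose. Of all genes tested, 10.5% fell and 9.35% rose. The median log2 fold change was -0.58 over the 28 genes and -0.01 over all genes. Both shRNA 1 libraries lay below both controls for 24 of the 28 genes, against 34.0% of all genes. The 4 exceptions were INSIG2 and SCAP, above both controls as were 31.7% of all genes, and LSS and NPC2, which overlapped them.

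With shRNA 2, 3 of 28 genes fell, namely SREBF2, HMGCS1 and SQLE, and 4 rose, namely INSIG1, INSIG2, LBR and NPC1. Of all genes, 7.73% fell and 11.1% rose, so both counts of members are near the background. The median log2 fold change was -0.06 over the 28 genes and 0.01 over all genes. Other scalings gave other splits of the calls, for members and for all genes. After quantile normalization 3 members were higher and 5 lower, among 1541 genes higher and 1515 lower, against 1800 and 1255 as deposited. With libraries scaled to reads of non-mitochondrial genes, 4 members were higher and 5 lower, among 1417 genes higher and 1679 lower. Both shRNA 2 libraries lay below both controls for 10 of the 28 genes, against 27.5% of all genes, and above them for 8, against 29.9%.

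**Figure D1:**
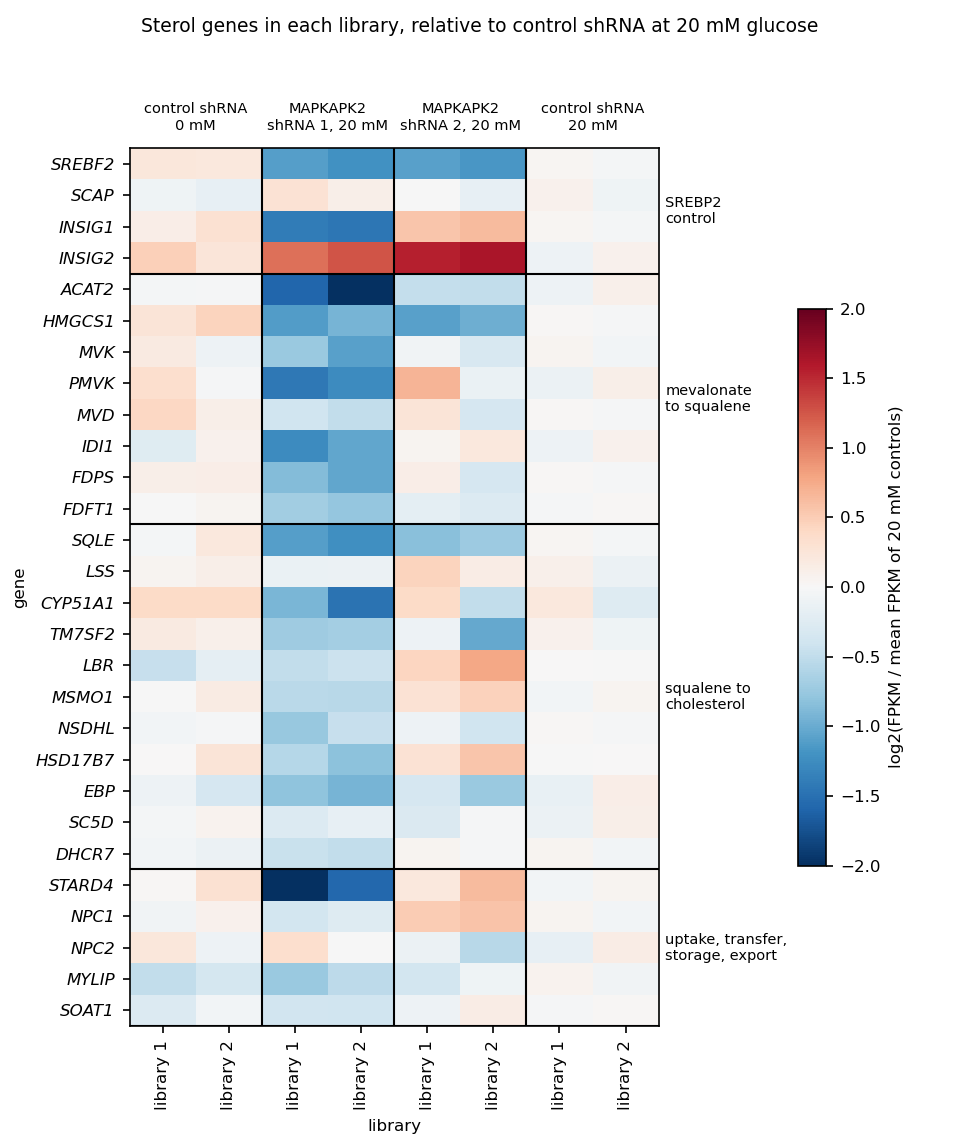
Level of the 28 tested sterol genes in each of the 8 libraries, as log2 of FPKM over the mean of the 20 mM controls; rows are genes grouped by role and columns are libraries. Most rows are blue, that is low, in both shRNA 1 libraries, while with shRNA 2 SREBF2, HMGCS1 and SQLE are low and INSIG1, INSIG2, LBR and NPC1 are high.

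The map of log2 levels by library shows the 28 genes in the order of the pathway. The contrast between the hairpins runs through most of the rows of synthesis enzymes, whereas the rows of SREBF2, HMGCS1 and INSIG2 have like colours in all 4 libraries with a MAPKAPK2 shRNA.

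SREBF2 fell with both hairpins and to a similar level. It had 16.6 and 15.4 FPKM with shRNA 1 and 16.7 and 15.8 FPKM with shRNA 2, against 36.6 and 34.5 FPKM in the 20 mM controls. All 4 libraries with a MAPKAPK2 shRNA lay below both controls and their values overlapped one another, at 45.1% of the control mean with shRNA 1 and 45.9% with shRNA 2. On the log2 scale the fold change was -1.10 (SE 0.08, limma adjusted p = 0.00086) with shRNA 1 and -1.08 (SE 0.08, limma adjusted p = 0.000584) with shRNA 2. The difference between the hairpins was 0.02 (SE 0.08, limma adjusted p = 0.879). SREBF2 rests on 1783 to 6484 reads per library. The gene (ENSG00000198911) lies on chromosome 22 from 41833079 to 41907308 in GRCh38, and 3.71% of its exon bases overlap an antisense gene.

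INSIG1 and INSIG2, the retention factors, went opposite ways with shRNA 1, and both rose with shRNA 2. INSIG1 had 8.54 and 8.22 FPKM with shRNA 1 and 32.8 and 34.9 FPKM with shRNA 2, against 23.1 and 21.8 FPKM in the 20 mM controls. No library of any of these groups overlapped another group: shRNA 1 was lowest and shRNA 2 highest. INSIG1 fell with shRNA 1 by 1.32 on the log2 scale (SE 0.09, limma adjusted p = 0.00066) and rose with shRNA 2 by 0.57 (SE 0.09, limma adjusted p = 0.00775). The difference between the hairpins was 1.89 (SE 0.09, limma adjusted p = 0.000307).

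INSIG2 had 7.10 and 7.90 FPKM with shRNA 1 and 9.69 and 10.2 FPKM with shRNA 2, against 3.07 and 3.51 FPKM in the 20 mM controls. All 4 libraries with a MAPKAPK2 shRNA lay above both controls. It rose by 0.99 (SE 0.11, limma adjusted p = 0.00251) with shRNA 1 and by 1.35 (SE 0.11, limma adjusted p = 0.000676) with shRNA 2, to 228% and 302% of the control mean, the highest share among the 28 genes in either group. Both shRNA 2 libraries lay above both shRNA 1 libraries. The difference between the hairpins was 0.37 (SE 0.11, limma adjusted p = 0.0586), and 0.41 by limma voom on reads (limma voom adjusted p = 0.0415). The FPKM of INSIG1 divided by that of INSIG2 was 1.203 and 1.041 with shRNA 1, 3.38 and 3.41 with shRNA 2, 5.37 and 7.12 at 0 mM glucose, and 7.52 and 6.20 in the 20 mM controls, so the ratio was lower in every library with a MAPKAPK2 shRNA than in any control.

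SCAP, the escort of SREBP2, did not pass the test. It had 21.1 and 18.8 FPKM with shRNA 1 and 17.2 and 15.5 FPKM with shRNA 2, against 18.3 and 16.3 FPKM in the 20 mM controls. The log2 fold changes were 0.19 (limma adjusted p = 0.247) and -0.08 (limma adjusted p = 0.669).

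**Figure D2:**
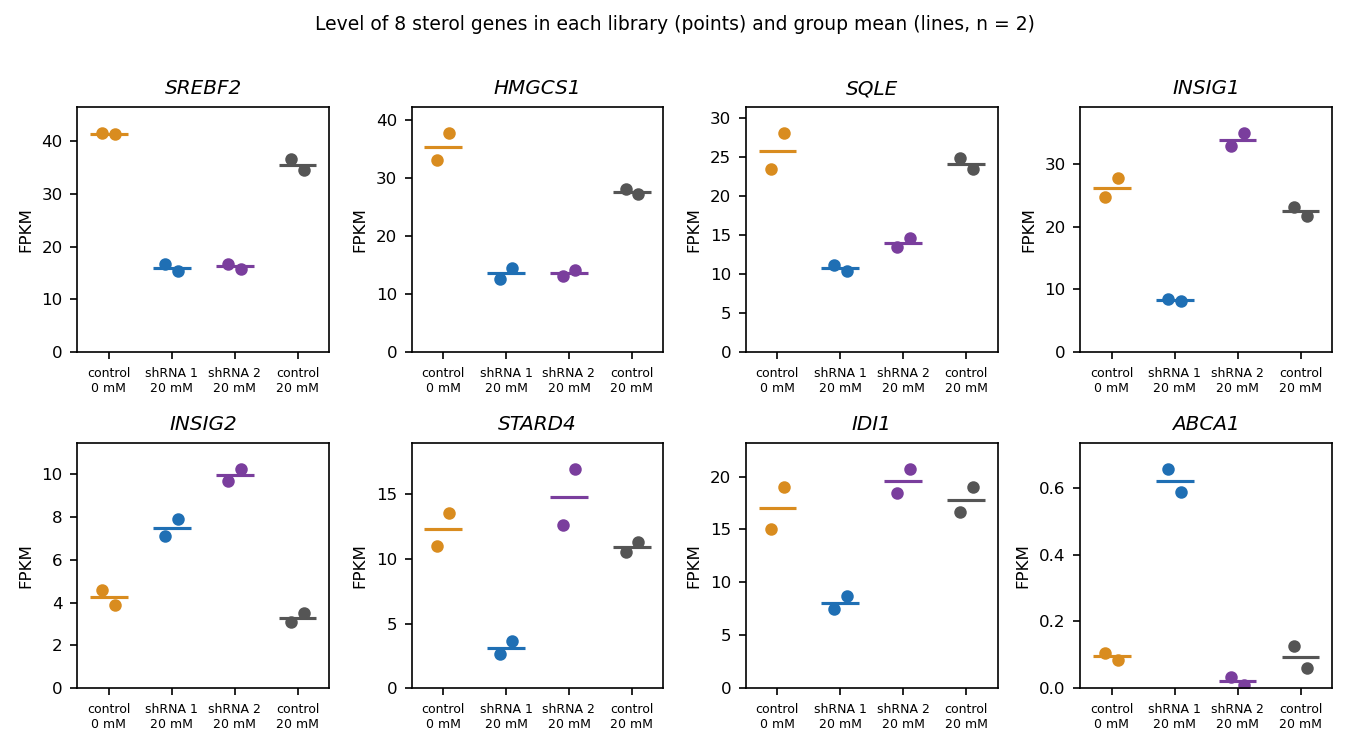
FPKM of 8 sterol genes in each library (points) with the group mean (lines, n = 2) for control shRNA at 0 mM glucose, MAPKAPK2 shRNA 1 and shRNA 2 at 20 mM, and control shRNA at 20 mM; the axes start at 0 and differ between genes. SREBF2 and HMGCS1 sit at like levels with both hairpins, whereas INSIG1, STARD4, IDI1 and ABCA1 differ between them.

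The plot of FPKM for 8 genes sets these patterns side by side. In SREBF2, HMGCS1 and SQLE the points of both hairpins lie below the controls, and in INSIG2 they lie above. In INSIG1, STARD4 and IDI1 the shRNA 1 points lie low and the shRNA 2 points do not.

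Of the 8 listed genes between acetyl-CoA and squalene, which are not every enzyme of that stretch, 7 fell with shRNA 1 and 1, HMGCS1, fell with shRNA 2. Their median log2 fold change was -0.93 with shRNA 1 and -0.13 with shRNA 2. ACAT2, the cytosolic thiolase that joins the first acetyl groups, had 2.67 and 1.72 FPKM with shRNA 1 and 5.77 and 5.66 FPKM with shRNA 2, against 7.43 and 8.59 FPKM in the 20 mM controls. The shRNA 1 libraries were lowest, at 27.4% of the control mean, the lowest share among the 28 genes; the shRNA 2 libraries lay between them and the controls. ACAT2 fell with shRNA 1 (log2 fold change -1.51, SE 0.15, limma adjusted p = 0.00182), and with shRNA 2 the value was -0.42 (limma adjusted p = 0.103). Of its exon bases 52.3% lie in exons of other genes, so reads cannot be assigned with certainty.

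HMGCS1 encodes the synthase that makes HMG-CoA, the precursor of mevalonate. It had 12.7 and 14.5 FPKM with shRNA 1 and 13.05 and 14.1 FPKM with shRNA 2, against 28.0 and 27.2 FPKM in the 20 mM controls. Libraries of both hairpins overlapped each other and lay below both controls. HMGCS1 changed by -0.97 on the log2 scale (SE 0.11) in both comparisons, with a limma adjusted p of 0.00224 for shRNA 1 and 0.00188 for shRNA 2. The difference between the hairpins was -0.0018 (SE 0.11, limma adjusted p = 0.995).

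The next 3 listed enzymes phosphorylate and decarboxylate mevalonate. MVK, mevalonate kinase, had 2.80 and 2.23 FPKM with shRNA 1 and 4.49 and 3.77 FPKM with shRNA 2, against 4.87 and 4.55 FPKM in the 20 mM controls. PMVK, phosphomevalonate kinase, had 4.65 and 5.21 FPKM with shRNA 1 and 20.1 and 11.45 FPKM with shRNA 2, against 11.54 and 13.5 FPKM in the 20 mM controls. Both kinases were lowest with shRNA 1, and the shRNA 2 libraries of PMVK differed by more than the controls did and lay on either side of them. MVK fell by 0.70 (SE 0.14, limma adjusted p = 0.015) and PMVK by 1.19 (SE 0.25, limma adjusted p = 0.0185) with shRNA 1. MVD, the decarboxylase, had 15.1 and 14.03 FPKM with shRNA 1 and 23.7 and 15.7 FPKM with shRNA 2, against 20.1 and 19.5 FPKM in the 20 mM controls, and passed with neither hairpin (limma adjusted p = 0.167 and 0.921).

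IDI1, the isomerase of isopentenyl diphosphate, had 7.46 and 8.68 FPKM with shRNA 1 and 18.5 and 20.7 FPKM with shRNA 2, against 16.6 and 19.0 FPKM in the 20 mM controls. The shRNA 2 libraries overlapped the controls and the shRNA 1 libraries lay far below. IDI1 fell with shRNA 1 (log2 fold change -1.05, SE 0.14, limma adjusted p = 0.00427). FDPS, which makes farnesyl diphosphate, had 11.9 and 10.5 FPKM with shRNA 1 and 23.8 and 17.2 FPKM with shRNA 2, against 22.1 and 21.4 FPKM in the 20 mM controls. The shRNA 2 libraries lay on either side of the controls, and the shRNA 1 libraries below all others. FDPS fell with shRNA 1 by 0.90 (SE 0.15, limma adjusted p = 0.00878); 8 annotated pseudogene copies make its level less certain.

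FDFT1, squalene synthase, closes this stretch. It had 17.6 and 16.6 FPKM with shRNA 1 and 24.8 and 23.4 FPKM with shRNA 2, against 27.8 and 28.9 FPKM in the 20 mM controls, so that the 3 groups did not overlap. It fell with shRNA 1 (log2 fold change -0.70, SE 0.08, limma adjusted p = 0.00289), and with shRNA 2 the value was -0.23 (limma adjusted p = 0.106).

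Of the 11 listed genes between squalene and cholesterol, 6 fell with shRNA 1, while with shRNA 2 SQLE fell and LBR rose. The median log2 fold change was -0.51 with shRNA 1 and -0.01 with shRNA 2. SQLE, squalene epoxidase, had 11.2 and 10.4 FPKM with shRNA 1 and 13.5 and 14.6 FPKM with shRNA 2, against 24.9 and 23.5 FPKM in the 20 mM controls. All 4 libraries with a MAPKAPK2 shRNA lay below both controls, and those of shRNA 1 below those of shRNA 2. SQLE changed by -1.09 on the log2 scale (SE 0.11, limma adjusted p = 0.00182) with shRNA 1 and -0.74 (SE 0.11, limma adjusted p = 0.00559) with shRNA 2, and the difference between the hairpins was 0.35 (SE 0.11, limma adjusted p = 0.0626).

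LBR and TM7SF2 encode sterol reductases for the same step, of which LBR also sits in the inner nuclear membrane. LBR had 16.2 and 16.9 FPKM with shRNA 1 and 30.7 and 38.9 FPKM with shRNA 2, against 23.0 and 22.5 FPKM in the 20 mM controls. The shRNA 2 libraries were above and the shRNA 1 libraries below the controls without overlap. LBR rose with shRNA 2 by 0.58 (SE 0.14, limma adjusted p = 0.0273), and with shRNA 1 the value was -0.44 (limma adjusted p = 0.0664). TM7SF2 had 6.31 and 6.45 FPKM with shRNA 1 and 9.54 and 5.03 FPKM with shRNA 2, against 10.9 and 9.68 FPKM in the 20 mM controls, and did not pass (limma adjusted p = 0.119 and 0.197); its shRNA 2 libraries differed 1.90-fold, the widest gap among the 28 genes.

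MSMO1, NSDHL and HSD17B7 remove methyl groups from the sterol ring. MSMO1 had 15.7 and 15.6 FPKM with shRNA 1 and 27.9 and 31.3 FPKM with shRNA 2, against 22.0 and 23.6 FPKM in the 20 mM controls. HSD17B7 had 2.45 and 2.07 FPKM with shRNA 1 and 4.43 and 5.34 FPKM with shRNA 2, against 3.63 and 3.63 FPKM in the 20 mM controls. Both genes stood below the controls with shRNA 1 and above them with shRNA 2, and in each the fall with shRNA 1 passed (log2 fold change -0.51 for both, limma adjusted p = 0.0154 for MSMO1 and 0.0348 for HSD17B7). The values with shRNA 2, 0.36 for MSMO1 and 0.34 for HSD17B7, did not pass (limma adjusted p = 0.0503 and 0.116). NSDHL had 7.93 and 9.73 FPKM with shRNA 1 and 12.5 and 10.1 FPKM with shRNA 2, against 13.6 and 13.1 FPKM in the 20 mM controls, and fell with shRNA 1 by 0.55 (limma adjusted p = 0.0275).

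The other listed enzymes of the route follow. EBP, the sterol isomerase, had 11.6 and 10.7 FPKM with shRNA 1 and 16.2 and 12.1 FPKM with shRNA 2, against 18.3 and 22.4 FPKM in the 20 mM controls; it fell with shRNA 1 by 0.81 (limma adjusted p = 0.0165), and with shRNA 2 the value was -0.50 (limma adjusted p = 0.0778). DHCR7, the reductase that yields cholesterol, had 22.4 and 21.6 FPKM with shRNA 1 and 31.8 and 30.0 FPKM with shRNA 2, against 31.6 and 29.5 FPKM in the 20 mM controls. For DHCR7 the shRNA 2 libraries overlapped the controls, and the fall of 0.45 with shRNA 1 passed (limma adjusted p = 0.0126). LSS, CYP51A1 and SC5D passed with neither hairpin in limma on log2(FPKM + 1). By limma voom on reads, CYP51A1 fell with shRNA 1 (log2 fold change -1.14, limma voom adjusted p = 0.0245). CYP51A1, the lanosterol demethylase, had 1.35 and 0.912 FPKM with shRNA 1 and 3.33 and 1.80 FPKM with shRNA 2, against 2.95 and 2.13 FPKM in the 20 mM controls, from 50 to 245 reads per library; 83.2% of its exon bases lie in exons of other genes. SC5D, the desaturase, and LSS, lanosterol synthase, stood at 85.6% and 91.8% of the control mean with shRNA 1 and at 90.3% and 123% with shRNA 2.

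**Figure D3:**
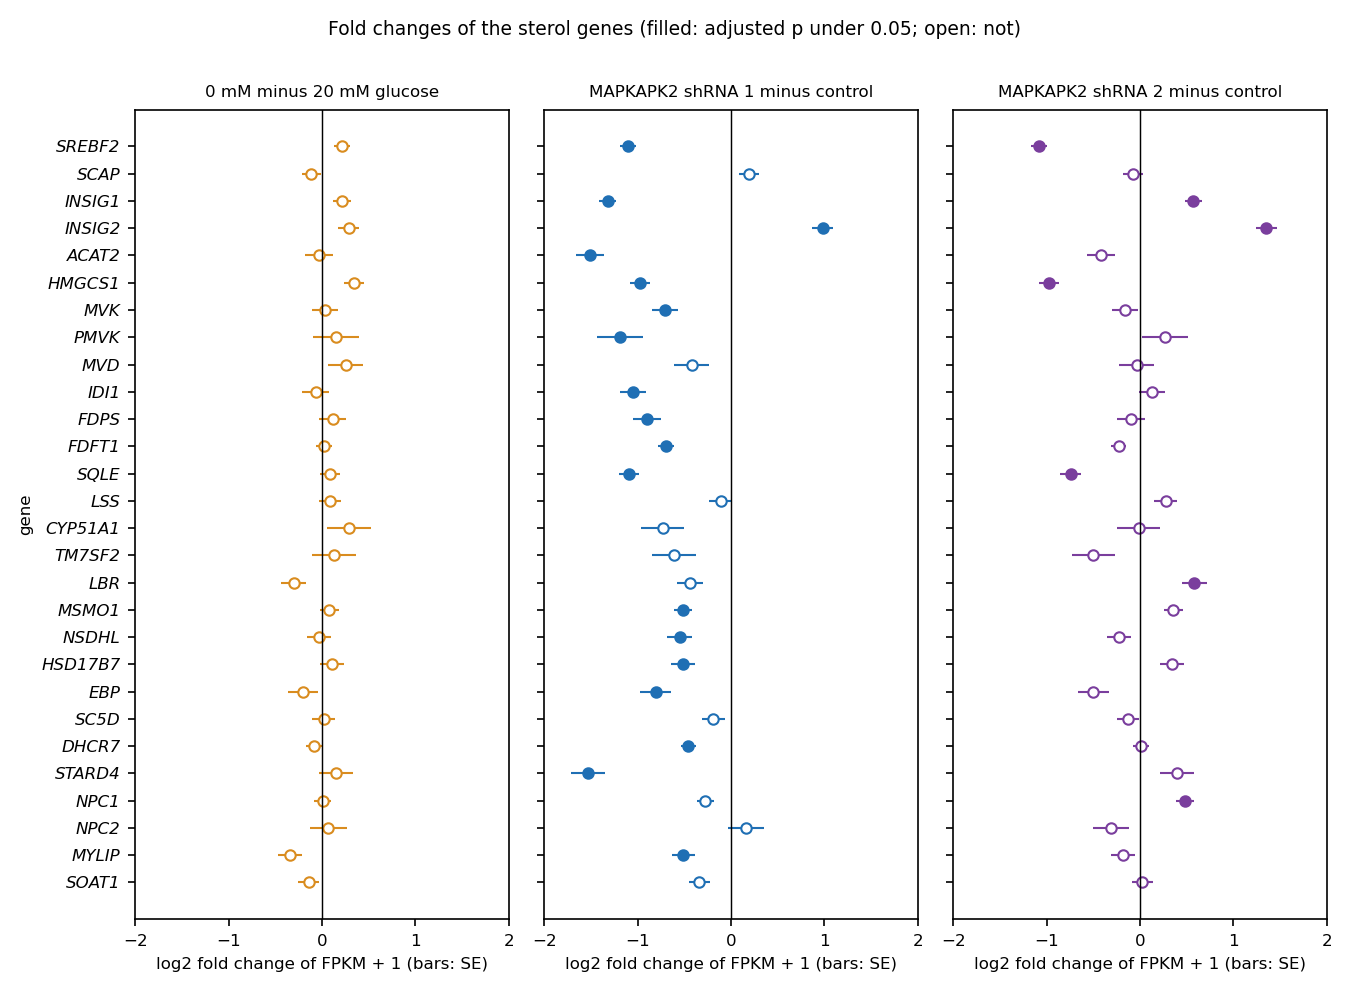
Log2 fold change of FPKM + 1 with its SE for the 28 tested sterol genes, for 0 mM minus 20 mM glucose, MAPKAPK2 shRNA 1 minus control and MAPKAPK2 shRNA 2 minus control; filled points passed an adjusted p of 0.05 and open points did not. No point is filled for glucose, 18 are filled for shRNA 1, of which 17 lie left of 0, and 7 for shRNA 2, of which 3 lie left of 0.

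Among genes of transfer, storage and export, STARD4 showed the widest contrast between the hairpins. STARD4, a carrier of sterol between membranes, had 2.62 and 3.68 FPKM with shRNA 1 and 12.6 and 16.9 FPKM with shRNA 2, against 10.5 and 11.3 FPKM in the 20 mM controls. The shRNA 1 libraries were at 28.95% of the control mean and overlapped no other group, and both shRNA 2 libraries lay above both controls. STARD4 fell with shRNA 1 (log2 fold change -1.53, SE 0.18, limma adjusted p = 0.00296), and with shRNA 2 the value was 0.39 (limma adjusted p = 0.192). The difference between the hairpins was 1.92 (SE 0.18, limma adjusted p = 0.00107), the largest among the 28 genes.

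NPC1 and NPC2 pass cholesterol out of the lysosome. NPC1 had 6.36 and 6.86 FPKM with shRNA 1 and 11.6 and 12.1 FPKM with shRNA 2, against 8.52 and 7.88 FPKM in the 20 mM controls, with the shRNA 2 libraries above both controls and the shRNA 1 libraries below both. NPC1 rose with shRNA 2 by 0.48 (SE 0.10, limma adjusted p = 0.0149). NPC2 overlapped the controls with shRNA 1 and passed with neither hairpin (limma adjusted p = 0.612 and 0.331). MYLIP, a ubiquitin ligase that marks a lipoprotein receptor for degradation, had 3.24 and 3.79 FPKM with shRNA 1 and 4.23 and 5.14 FPKM with shRNA 2, against 5.68 and 5.19 FPKM in the 20 mM controls. All 4 libraries with a MAPKAPK2 shRNA lay below both controls. MYLIP fell with shRNA 1 by 0.51 (limma adjusted p = 0.0302), and with shRNA 2 the value was -0.18 and did not pass (limma adjusted p = 0.365). SOAT1, which esterifies cholesterol for storage, stood at 76.4% of the control mean with shRNA 1 and 102% with shRNA 2 and did not pass (limma adjusted p = 0.0826 and 0.908).

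ABCA1, the pump that exports cholesterol and a known target of the sterol-sensing LXR receptors, was too low to be tested with the others. It had 0.655 and 0.588 FPKM with shRNA 1, from 140 and 102 reads, and 0.0326 and 0.0109 FPKM with shRNA 2, from 7 and 2 reads, against 0.126 and 0.0594 FPKM in the 20 mM controls, from 24 and 12 reads. Of the 8 libraries those of shRNA 1 were highest and those of shRNA 2 lowest. The exact 95% Poisson intervals of the shRNA 1 libraries, 0.551 to 0.773 and 0.479 to 0.713 FPKM, lay above those of the controls, 0.0810 to 0.188 and 0.0307 to 0.104 FPKM; they cover counting error only. With no filter on low values, ABCA1 changed on the log2 scale by 0.57 (SE 0.07, limma adjusted p = 0.011) with shRNA 1 and -0.10 (SE 0.07, limma adjusted p = 0.541) with shRNA 2. The rise with shRNA 1 passed in that fit. On the same scale the difference between the hairpins was -0.67 (limma adjusted p = 0.00564), opposite in sign to those of INSIG1 and STARD4.

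The difference between the hairpins was itself tested. Of the 28 genes 13 stood higher with shRNA 2 than with shRNA 1 and 0 lower (limma; at an unadjusted p under 0.05, 20 higher and 2 lower; limma voom on reads, 17 higher and 0 lower). Of all genes, 13.0% were higher and 9.13% lower, or 16.7% and 11.7% with voom. At an unadjusted p under 0.05 in limma's test, 3333 of all 16239 genes were higher and 2577 lower. The 13 were STARD4, INSIG1, PMVK, IDI1, ACAT2, LBR, MSMO1, HSD17B7, FDPS, NPC1, MVK, DHCR7 and FDFT1. By role, 6 of the 8 genes up to squalene passed, 4 of the 11 genes after it, 1 of 4 control genes and 2 of 5 of transfer, storage and export. Both shRNA 2 libraries lay above both shRNA 1 libraries for 22 of 28 genes, against 32.0% of all genes, and below them for SCAP and NPC2, against 27.9%. SREBF2, HMGCS1, TM7SF2 and SC5D overlapped.

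These counts moved with the scaling of the libraries. The scaling to non-mitochondrial reads also replaced the library size implied by the FPKM, so it does not isolate the mitochondrial share. Scaled to reads of non-mitochondrial genes, the median over all genes of shRNA 2 minus shRNA 1 was -0.10, against 0.03 as deposited, and 1380 genes were higher and 2439 lower, against 2119 and 1483. Members then numbered 12 higher and 1 lower, with a median of 0.26, against 0.43 as deposited. Quantile normalization gave 13 higher and 1 lower, among 1768 genes higher and 1822 lower. With shRNA 1 minus control, the scaling to non-mitochondrial reads gave 16 members lower and 1 higher, among 1941 genes higher and 1388 lower, against 1518 and 1704 as deposited.

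Taking the mean of both hairpins against the control, with the same sign required of each, 8 of 28 genes fell and INSIG2 rose. Of all genes, 7.77% fell and 9.56% rose. The 8 were SREBF2, HMGCS1, SQLE, ACAT2, EBP, FDFT1, FDPS and MVK. Of these, only SREBF2, HMGCS1 and SQLE also passed with shRNA 2 alone. There ACAT2 had -0.42 (limma adjusted p = 0.103), EBP -0.50 (limma adjusted p = 0.0778) and FDFT1 -0.23 (limma adjusted p = 0.106). FDPS had -0.10 (limma adjusted p = 0.697) and MVK -0.16 (limma adjusted p = 0.48) with shRNA 2. SREBF2 had a log2 fold change of -1.09 (SE 0.07, limma adjusted p = 0.00047), HMGCS1 of -0.97 (SE 0.09, limma adjusted p = 0.00143), SQLE of -0.92 (SE 0.10, limma adjusted p = 0.00186) and INSIG2 of 1.17 (SE 0.10, limma adjusted p = 0.00096). INSIG1 and IDI1 had limma adjusted p-values of 0.022 and 0.0423 but opposite signs with the hairpins, and were not called.

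Single libraries decided many of these calls. With shRNA 1, the calls of SREBF2, INSIG1, INSIG2, ACAT2, HMGCS1, IDI1, FDFT1, SQLE and STARD4 were kept in each of 15 alternatives, whereas those of DHCR7, EBP, HSD17B7, MSMO1, MYLIP, NSDHL and PMVK were lost without any 1 of the 4 libraries compared, and those of FDPS and MVK without the second shRNA 1 library or either control, which left 9 members called without either control or the second shRNA 1 library and 11 without the first. The calls of MYLIP and NSDHL were lost also without the second 0 mM library. With shRNA 2, SREBF2, HMGCS1 and INSIG2 were kept throughout; 4 members were called without either control, SQLE was lost without the first control, INSIG1 without the second, NPC1 without either, and LBR without the second shRNA 2 library, either control or either shRNA 1 library. Over both hairpins, SREBF2, HMGCS1, SQLE and INSIG2 were kept throughout, and 5 and 4 members were called without the first and the second control. ACAT2 was lost there without the second control, FDFT1 without either control, EBP without either control or either shRNA 1 library, and FDPS and MVK without any 1 library other than the first of shRNA 2. Between the hairpins, ACAT2, IDI1, INSIG1, LBR, MSMO1, NPC1 and STARD4 were kept throughout. There DHCR7 was lost without either shRNA 1 library, FDFT1 and FDPS without the second, PMVK without the first, and MVK without either shRNA 1 library, either control or the first shRNA 2 library.

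The second shRNA 2 library stood apart on the third principal component, and the first, at -16.71, lay at the other end. Without the second, the median log2 fold change with shRNA 2 over the 28 genes was 0.02. Without the first it was -0.13, against -0.06 with all libraries. In shRNA 2 minus shRNA 1 the median was 0.52 without the second and 0.43 without the first, against 0.43 with all libraries. The 2 libraries of a group differed by more than 1.5-fold for 4 of the 28 genes with shRNA 2, for 1 with shRNA 1 and for 0 at 0 mM glucose and in the 20 mM controls. Without the second 0 mM library, the median log2 fold change of the glucose comparison over the 28 genes was -0.0001, against 0.07 with all libraries. Of the 28 genes, 14 then lay above 0 and 14 below, against 19 and 9 with all libraries.

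The glucose comparison asked whether 24 h without glucose moved the same genes. None of the 28 passed (limma; at an unadjusted p under 0.05, 3 higher and 1 lower; limma voom on reads, 0). Of all genes, 0.0% passed, with 1421 at an unadjusted p under 0.05, and the voom fit called 28 genes, 0.172%. The median log2 fold change was 0.07 over the 28 genes and -0.01 over all genes. Both 0 mM libraries lay above both 20 mM controls for 9 genes, against 19.1% of all genes, and below them for 4, against 22.2%.

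SREBF2 had 41.5 and 41.3 FPKM at 0 mM glucose, against 36.6 and 34.5 FPKM at 20 mM, and HMGCS1 had 33.0 and 37.6 FPKM, against 28.0 and 27.2 FPKM. INSIG1 had 24.7 and 27.7 FPKM at 0 mM glucose, against 23.1 and 21.8 FPKM, and INSIG2 had 4.601 and 3.89 FPKM, against 3.07 and 3.51 FPKM. In these 4 genes the 0 mM libraries lay above the controls without overlap, by log2 differences of 0.21, 0.34, 0.21 and 0.29 that did not pass (limma adjusted p = 0.553, 0.477, 0.583 and 0.549). MYLIP had 3.87 and 4.28 FPKM at 0 mM glucose, against 5.68 and 5.19 FPKM, a difference of -0.34 (limma adjusted p = 0.519) and the lowest share of the control among the 28 genes, 75.0%. The highest share was that of CYP51A1, 130%. ABCA1 had 0.106 and 0.0857 FPKM at 0 mM glucose, from 25 and 15 reads, against 0.126 and 0.0594 FPKM.

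Genes of neighbouring routes were counted in 5 lists that share no member with the 29. Their counts stand against 9.35% of all genes higher and 10.5% lower with shRNA 1, and 11.1% higher and 7.73% lower with shRNA 2. At an unadjusted p under 0.05 in limma's test, 2631 of all 16239 genes were higher and 2878 lower with shRNA 1. Among 17 tested targets of SREBP1, the related factor of fatty acid synthesis, 8 fell and 0 rose with shRNA 1 (median -0.30; at 15 alternatives 4 to 8 fell and 0 rose, and 0 stood higher at an unadjusted p under 0.05 in limma's test), while with shRNA 2 2 fell and 5 rose (median 0.19; 1 to 3 fell and 3 to 6 rose). FADS1, a fatty acid desaturase, averaged 2.04 ± 0.19 FPKM with shRNA 1 and 7.28 ± 0.15 FPKM with shRNA 2, against 9.71 ± 0.46 FPKM in the 20 mM controls (SD, n = 2 each). It fell with shRNA 1 by 1.82 (limma adjusted p = 0.000511), and with shRNA 2 the value was -0.37 (limma adjusted p = 0.0722). FADS2, the partner desaturase, fell with both hairpins, by 0.88 (limma adjusted p = 0.00834) and 0.71 (limma adjusted p = 0.0169), as did MID1IP1, an activator of acetyl-CoA carboxylase, by 0.53 and 0.96 (limma adjusted p = 0.0181 and 0.00215). ACSS2, which makes acetyl-CoA from acetate, averaged 5.89 ± 0.20 FPKM with shRNA 1 and 16.8 ± 0.99 FPKM with shRNA 2, against 5.29 ± 0.32 FPKM in the 20 mM controls, and rose with shRNA 2 by 1.501 (limma adjusted p = 0.000468). Between the hairpins 9 of the 17 stood higher with shRNA 2 and 1 lower. The plot of list shares sets these counts beside those of the other lists and of all genes.

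Of 30 tested genes of SREBP processing and sterol-regulated turnover, 5 rose and 7 fell with shRNA 1 (median 0.08), and 6 rose and 4 fell with shRNA 2 (median 0.11). Over the alternatives 1 to 7 were higher and 2 to 9 lower with shRNA 1, and 2 to 6 higher and 2 to 5 lower with shRNA 2. SEC24D, a coat protein of vesicles that leave the endoplasmic reticulum, averaged 8.78 ± 0.26 FPKM with shRNA 1 and 12.1 ± 2.14 FPKM with shRNA 2, against 4.11 ± 0.16 FPKM in the 20 mM controls, and rose with both (0.94 and 1.35, limma adjusted p = 0.00539 and 0.00131). RNF139, a ubiquitin ligase of the endoplasmic reticulum, also rose with both (0.71 and 1.00, limma adjusted p = 0.00821 and 0.00228). TMEM97, a sterol-binding membrane protein, fell with both (-0.76 and -0.59, limma adjusted p = 0.00496 and 0.0116).

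Of 29 tested genes for other sterol receptors, transfer proteins and esterases, 11 rose and 2 fell with shRNA 1 (median 0.33), and 7 rose and 1 fell with shRNA 2 (median 0.30). Over the alternatives 2 to 14 were higher and 1 to 2 lower with shRNA 1, and 3 to 10 higher and 0 to 1 lower with shRNA 2. SCARB1, the receptor for high-density lipoprotein, averaged 21.7 ± 0.75 FPKM with shRNA 1 and 29.6 ± 2.14 FPKM with shRNA 2, against 15.5 ± 0.70 FPKM in the 20 mM controls, and rose with both (0.46 and 0.89, limma adjusted p = 0.017 and 0.00155). The oxysterol-binding family members OSBP2 (0.54 and 1.35, limma adjusted p = 0.0172 and 0.000643) and OSBPL9 (0.65 and 0.95, limma adjusted p = 0.0103 and 0.00256) rose with both. CAV1, the coat protein of caveolae, averaged 76.6 ± 3.04 FPKM with shRNA 1 and 92.8 ± 4.29 FPKM with shRNA 2, against 154 ± 6.55 FPKM in the 20 mM controls, and fell with both (-0.995 and -0.72, limma adjusted p = 0.00224 and 0.00604).

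**Figure D4:**
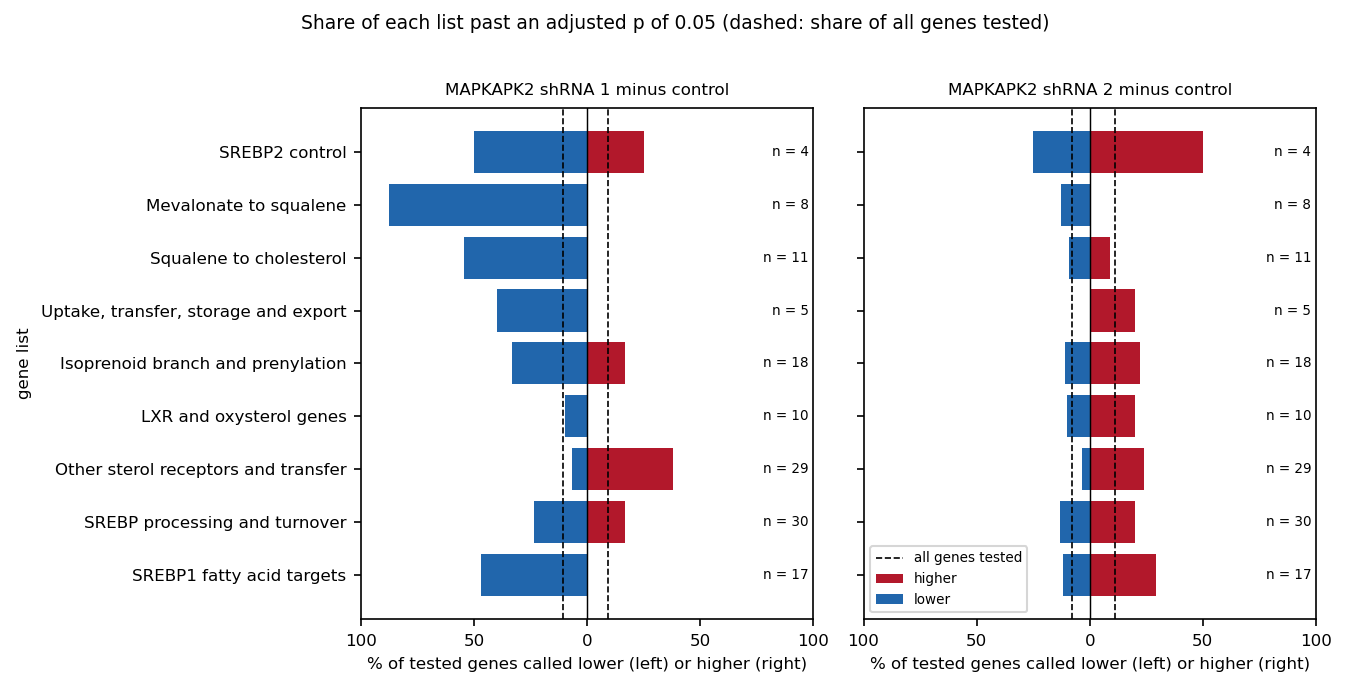
Share of the tested genes of each list that passed an adjusted p of 0.05, lower (left of 0) or higher (right of 0), for MAPKAPK2 shRNA 1 minus control and MAPKAPK2 shRNA 2 minus control; n is the number of genes tested and dashed lines mark the share of all genes. With shRNA 1 the bars of the 8 genes up to squalene (7 lower), the 11 after it (6 lower) and the 17 SREBP1 targets (8 lower) run far left of the dashed line. With shRNA 2 these bars do not. Bars of other lists, among them SREBP2 control (2 of 4 lower), also pass that line with shRNA 1.

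The isoprenoid branch draws on farnesyl diphosphate for dolichol, ubiquinone and protein prenylation. Of its 18 tested genes 3 rose and 6 fell with shRNA 1 (median -0.09), and 4 rose and 2 fell with shRNA 2 (median -0.04). Over the alternatives 1 to 3 were higher and 1 to 7 lower with shRNA 1, and 1 to 4 higher and 0 to 4 lower with shRNA 2. NUS1, a subunit of the enzyme that starts dolichol, averaged 26.5 ± 1.24 FPKM with shRNA 1 and 23.7 ± 2.08 FPKM with shRNA 2, against 13.5 ± 0.44 FPKM in the 20 mM controls, and rose with both (0.93 and 0.77, limma adjusted p = 0.00235 and 0.00402). FNTA, the shared subunit of both CAAX prenyltransferases, rose with both (0.46 and 0.74, limma adjusted p = 0.0282 and 0.00544), and ICMT, the methyltransferase of prenylated proteins, fell with both (-0.94 and -0.34, limma adjusted p = 0.00156 and 0.038). RABGGTB, of the enzyme that prenylates Rab proteins, fell with shRNA 1 (-0.49, limma adjusted p = 0.0146) and had -0.27 with shRNA 2 (limma adjusted p = 0.0998).

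Of 18 genes for LXR receptors, their partners and targets, and oxysterol enzymes, only 10 could be tested. With shRNA 1, 0 rose and 1, the transporter gene ABCA7, fell; with shRNA 2, 2 rose and ABCA7 fell. At an unadjusted p under 0.05 in limma's test, 2 stood higher and 4 lower with shRNA 1, against 2631 and 2878 of all 16239 genes. There limma voom on recovered reads called 1 higher and 4 lower, against 1946 and 2187 of all genes. With shRNA 2 the alternatives gave 0 to 3 higher and 0 to 1 lower. ABCA7 averaged 13.7 ± 0.46 FPKM with shRNA 1 and 13.7 ± 1.03 FPKM with shRNA 2, against 22.3 ± 1.60 FPKM in the 20 mM controls (log2 fold changes -0.66 and -0.67, limma adjusted p = 0.00767 and 0.00677). LPCAT3 and EEPD1 passed with neither hairpin, with log2 fold changes of 0.40 and 0.56 with shRNA 1 and of 0.42 and 0.16 with shRNA 2, and RXRB, a partner of LXR, rose with shRNA 2 (0.56, limma adjusted p = 0.0402). At 0 mM glucose 0 of the 104 tested genes of the 5 lists passed limma's test and 0 passed limma voom on recovered reads. At an unadjusted p under 0.05 in limma's test, 1 stood higher and 3 lower, against 655 and 766 of all 16239 genes.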

How the data were processed

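Total RNA of HCT116 cells was sequenced after random-hexamer priming, per the labels' protocols; they do not say whether strand was kept. The submitters' processing notes name featureCounts 1.5.0-p3, DESeq2 1.20.0 and HISAT2 2.0.5 without saying which made which values. The deposited table holds FPKM that the authors made, per the file headers, for 58735 genes in 8 libraries; all 58735 entries match the identifiers, starts and ends of GENCODE 29 on GRCh38, and the gene lengths of the 29 genes equal the union of their exons there. Groups came from the labels.

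FPKM times gene length gave whole reads for 100% of values within 0.001 of a step, 14252316 to 19975449 reads per library, so 95% Poisson intervals could be given for single levels; they cover counting error only. A model of 4 group means with 4 residual degrees of freedom was fitted to log2(FPKM + 1) with limma 3.58.1 in R 4.3.3 (intensity trend) over the 16239 genes with 1 FPKM or more in 2 or more libraries, with a pseudocount of 1. Calls needed a p under 0.05 after Benjamini-Hochberg adjustment; the mean over both hairpins also needed 1 sign in both.

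Alternatives were a pseudocount of 0.1, no filter, quantile normalization, limma voom on the recovered reads and the replicate block. A fit to the compared groups alone and each library left out in turn were others. Scaling to non-mitochondrial reads was chosen after seeing the data. It put reads in non-mitochondrial genes in place of the library size implied by the FPKM, which voom kept.

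The members and the gene lists were chosen with earlier results of these data known. Members past the threshold are given by library, the others by value, range or count; each of the 5 lists names up to 4 genes with the smallest p over both hairpins, of which 1 is not reported here. Annotated exons of 13 of the 29 genes overlap another gene's, 2 of them (ACAT2 and CYP51A1) by over 20%, and FDPS, CYP51A1 and HSD17B7 have named pseudogene copies, so their levels are less certain. Promoter windows came from RefSeq on GRCh38.p14; ACAT2, FDFT1 and SQLE had no entry in the table used.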

Additional observations from a re-analysis of the deposited data

Results flagged for a closer look

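For 13 genes the change against the 20 mM control differed between the hairpins, by limma's test of shRNA 2 minus shRNA 1 over all genes (adjusted p under 0.05). Of all genes in that test, 13.0% were higher and 9.13% lower with shRNA 2. These are differences between 2 libraries with shRNA 2 and 2 with shRNA 1. Every one of the 13 was higher with shRNA 2, in both of its libraries.

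The widest differences on the log2 scale were in the sterol carrier STARD4 (1.92) and the SREBP2 retention factor INSIG1 (1.89). Among enzymes up to squalene they were 1.45 for PMVK, 1.18 for IDI1, 1.09 for ACAT2, 0.8 for FDPS, 0.55 for MVK and 0.47 for FDFT1. Among later enzymes they were 1.02 for LBR, 0.87 for MSMO1, 0.85 for HSD17B7 and 0.47 for DHCR7. NPC1, of lysosomal export, differed by 0.76.

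SREBF2 mRNA differed by 0.02 between the same libraries (limma adjusted p = 0.879), with an SE of 0.08. The activity of its product was not tested. MAPKAPK2 itself was lower with shRNA 2 than with shRNA 1, by a log2 difference of -0.95 (limma adjusted p = 0.00124). The share of mitochondrial reads was 7.06% and 9.10% with shRNA 2 and 11.1% and 9.62% with shRNA 1. Its part in these differences was not tested. The scaling to non-mitochondrial reads also replaced the library size implied by the FPKM, so it does not isolate that share.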

How the results depend on the processing

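The 47 calls of single genes over 4 comparisons were fitted under 15 alternatives, 705 cases in all. The call was kept in 606 and lost in 99, and the direction turned in 0; 23 calls were kept in every alternative. Fitted to the compared groups alone, shRNA 2 minus control called 4 members against 7, and shRNA 2 minus shRNA 1 called 7 against 13; over all genes these were 961 against 3055 and 1136 against 3602. Leaving out 1 library at a time, members called ranged between 9 and 23 for shRNA 1, 4 and 10 for shRNA 2, 4 and 13 for the mean of both hairpins, and 9 and 17 for shRNA 2 minus shRNA 1, with 0 for glucose throughout; over all genes the ranges were 942 to 4054, 1015 to 3026, 686 to 3437, 1335 to 3473 and 0 to 1. A group left with 1 library is assumed to vary like the others. With no filter, the mean of both hairpins called 1808 genes against 2815, 6 of them members against 9, and glucose called 6 genes. Limma voom on reads called 21 members for shRNA 1, 10 for shRNA 2 and 11 for the mean of both hairpins. Over all genes it called 4133, 3937 and 3689. Members called by voom only were CYP51A1, LBR and TM7SF2 with shRNA 1, and ACAT2, EBP and MSMO1 with shRNA 2. For the mean they were NSDHL and TM7SF2.

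The replicate numbers gave little sign of pairing: same-numbered libraries deviated together with correlations of -0.029 to 0.179 across genes over the 6 pairs of groups. With the replicate block, 20 members were called for shRNA 1, 9 for shRNA 2, 9 for the mean of both hairpins, 16 for shRNA 2 minus shRNA 1 and 0 for glucose. Over all genes the block called 3470, 3332, 3018, 3806 and 0 in the same comparisons, against 3222, 3055, 2815, 3602 and 0 without it. The ranges of the pathway lists over the alternatives stand beside their counts in the report. Depth limits CYP51A1, with 50 to 245 reads per library, and ABCA1, with 2 to 140.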
